A study of Oncorhynchus mykiss with 27 samples.

Results

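The transcripts described here are those of *gapdhs*, a glyceraldehyde-3-phosphate dehydrogenase, and *ndpkz3*, a nucleoside diphosphate kinase. They are 2 of the 9024 cDNA clones with values on the arrays, clone tcaa0001.e.20 for *gapdhs* and clone tcac0005.l.02 for *ndpkz3*. Both were picked by name from the genes the study found responsive to Fsh, and the study lists both among those whose response was lost with trilostane. Its discussion also names *gapdhs* among Fsh-responsive genes in the passage on action independent of steroids, so the study is not uniform on this transcript. The contrasts among the Ctrl, Fsh, Tri and Fsh+Tri treatments are thus the ones that chose them, and are given as a description without a test of either transcript. The tests concern the mean of the cultured treatments against day 0 and the stage label, whose estimates are independent of these contrasts by their construction. The spread between wells, which sets their p-values, also entered the study's choice of the clones.

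Small pieces of rainbow trout testis were measured on nylon membranes carrying spotted cDNA, where the brightness of a spot follows the steady-state level of a transcript. After 96 h of culture, 6 arrays each were made from explants without addition (Ctrl), with Fsh, the follicle-stimulating hormone purified from salmonid pituitaries, at 500 ng/mL (Fsh), with trilostane at 10 µg/mL (Tri), and with Fsh after a pre-incubation with trilostane, at the same doses (Fsh+Tri). Trilostane blocks the 3 beta-hydroxysteroid dehydrogenase, the enzyme that makes Δ4 steroids. A further 3 arrays hold tissue taken at day 0, before culture (T0). All wells were filled from 1 pool of explants, so replicates are wells and the p-values measure the spread between wells, not between fish. By the methods the pool held testis of maturity stages I-II and III. The sample labels give stage III for 3 Fsh, 2 Tri, 4 Fsh+Tri and 2 T0 arrays. The other arrays, among them all 6 of Ctrl, are labelled I-II, so Fsh and Ctrl differ in this label too. Explants hold Sertoli, Leydig, peritubular and blood cells beside germ cells, so that fewer cells of a type and less RNA per cell cannot be told apart.

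Glyceraldehyde-3-phosphate dehydrogenase catalyses the step of glycolysis that oxidises the triose phosphate and yields NADH. In mammals *Gapdhs* is the form of spermatids and sperm, where it is bound to the flagellum, while the widely expressed form is encoded by *Gapdh*. Nucleoside diphosphate kinases pass the terminal phosphate of ATP to other nucleoside diphosphates and so keep up the supply of GTP, UTP and CTP. The clone of *gapdhs* was annotated from its own sequence as a glyceraldehyde-3-phosphate dehydrogenase and from its contig as the testis-specific form, so a share of its signal may come from RNA of other forms that binds to the same cDNA.

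*gapdhs* was among the brightest transcripts of the arrays. Its value exceeded that of at least 97.7% of the clones on each of the 27 arrays. At T0 its log2 values were 10.74, 10.39 and 10.45. In Ctrl they ranged from 10.72 to 11.73 with a median of 11.37, and in Tri from 11.39 to 11.81 with a median of 11.48. In Fsh+Tri the range was 11.36 to 11.86 with a median of 11.70, and in Fsh it was 11.64 to 12.24 with a median of 12.01. Every cultured array except Ctrl replicate 4, at 10.72, thus lay above the 3 arrays of T0. The share of all clones that lie apart from T0 in this way was not counted.

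*ndpkz3* lay lower, above at least 73.9% of the clones on each array. At T0 its log2 values were 7.98, 8.87 and 8.53. In Ctrl they ranged from 7.20 to 7.83 with a median of 7.73, and in Tri from 7.37 to 7.78 with a median of 7.43. In Fsh+Tri the range was 7.45 to 7.96 with a median of 7.73. The 6 arrays of Fsh, from 8.10 to 8.81 with a median of 8.54, lay above all 18 arrays of the other cultured treatments and within the range of the T0 values. This separation falls in contrasts that chose the clone, and how many of all clones share it was not counted.

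The order of the group means differed between the transcripts. For *gapdhs* it ran, on the log2 scale, from T0 (10.53 ± 0.19, SD, n = 3) over Ctrl (11.34 ± 0.35, n = 6), Tri (11.54 ± 0.16, n = 6) and Fsh+Tri (11.68 ± 0.17, n = 6) to Fsh (11.96 ± 0.23, n = 6), and the ranges of each pair of neighbours overlapped. For *ndpkz3* it ran from Tri (7.48 ± 0.15, n = 6) over Ctrl (7.62 ± 0.24, n = 6) and Fsh+Tri (7.73 ± 0.17, n = 6) to T0 (8.46 ± 0.45, n = 3) and Fsh (8.48 ± 0.26, n = 6). Only the step from Fsh+Tri to T0 separated neighbours without overlap. The reference transcript *rps15*, a protein of the small ribosomal subunit, had group means within 0.08 of each other.

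**Figure D1:**
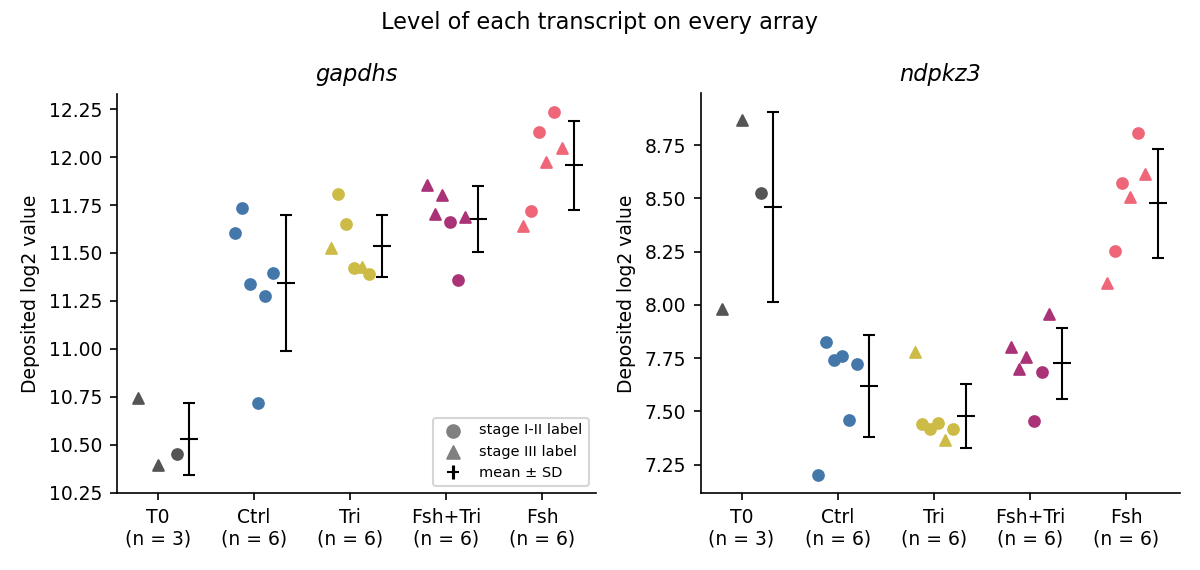
Deposited log2 values of *gapdhs* (left) and *ndpkz3* (right) on each of the 27 arrays, by group, with the mean and SD of the group beside the points and the stage label as the shape of the point. *gapdhs* is lowest at T0, whereas *ndpkz3* at T0 and in Fsh lies above the other 3 groups.

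The comparison of the 4 cultured treatments with tissue at day 0 covers 96 h in the well together with the additions. The contrasts that chose the clones hold no T0 array, but the mean includes wells with Fsh, whose high values helped to choose them. Ctrl alone differed from T0 by 0.81 for *gapdhs* and by -0.84 for *ndpkz3* on the log2 scale. *gapdhs* was higher and *ndpkz3* lower after culture. *gapdhs* rose by 1.10 on the log2 scale (standard error 0.15, 95% confidence interval 0.78 to 1.42), a ratio of 2.14, in the mean of the 4 cultured treatments against T0. *ndpkz3* fell by 0.64 (standard error 0.16, 95% confidence interval -0.95 to -0.32), to a ratio of 0.644. The fit shares a spread over all groups, although the SD of *ndpkz3* was 0.45 at T0 and 0.15 to 0.26 in the cultured groups. The standard error, interval and p-value of *ndpkz3* may thus understate its uncertainty. The p-values from limma, adjusted over all 4883 clones tested by Benjamini-Hochberg, were 1.53e-06 for *gapdhs* and 0.00218 for *ndpkz3*. Differences of this kind were common, since 29.3% of the clones tested (1432 of 4883) passed the threshold of 0.05, of which 751 were higher and 681 lower. *gapdhs* had the 169th highest change and *ndpkz3* the 401st lowest.

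Exact permutation tests over all 2925 ways to choose 3 arrays of 27, 2-sided, gave p = 0.000684 for *gapdhs* and p = 0.0198 for *ndpkz3*. They treat all arrays as exchangeable, although the cultured ones differ in treatment. Differences between treatments thus enter these p-values, which are not exact for culture alone. The call for *ndpkz3* rested on T0 replicate 2, the highest of the 3 T0 arrays at 8.87. Without it the fall was 0.43 with an adjusted p of 0.0741 from limma, whereas without T0 replicate 1, the lowest at 7.98, it was 0.87 with an adjusted p of 0.000329. T0 replicate 1 was also the only T0 array read with the newer layout of the image software and had the highest *gapdhs* value of the 3. Of all 27 arrays it had the lowest quality scores for both spots (0.778 for *gapdhs* and 0.794 for *ndpkz3*) and the lowest correlation across named clones between raw and deposited log2 values (0.964, beside 0.982 for the next lowest array). On arrays of the older layout alone *ndpkz3* fell by 0.90 (adjusted p = 0.000532, limma). With the layout as a covariate its difference was -0.64 (adjusted p = 0.00297, limma). The part of the software was not tested beyond these fits, and that of the spot quality was not tested.

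The difference made by culture and that between Fsh and Ctrl had the same sign for *gapdhs* and opposite signs for *ndpkz3*. Against T0, *gapdhs* differed by 0.81 in Ctrl, 1.01 in Tri, 1.15 in Fsh+Tri and 1.43 in Fsh (log2 differences, standard error 0.18 each). The corresponding differences of *ndpkz3* were -0.84 in Ctrl, -0.98 in Tri, -0.73 in Fsh+Tri and 0.02 in Fsh (standard error 0.18 each). All 18 pairs of a T0 and a Ctrl array had the T0 value of *ndpkz3* on top, and the same held for Tri and for Fsh+Tri. By limma's adjusted p, a different measure, 21.7%, 23.7% and 25.7% of all clones passed the threshold in these 3 contrasts. The share of clones separated in all pairs was not counted. With Fsh 9 of 18 pairs had the T0 value of *ndpkz3* on top. With a spread shared by all groups, narrower than that of T0 alone, the 95% confidence interval of its difference between Fsh and T0 reached from -0.35 to 0.38. This difference was -0.33 on raw intensities that were quantile normalized without division by the vector signal. It was -0.24 on arrays of the older layout and -0.22 without T0 replicate 1.

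**Figure D2:**
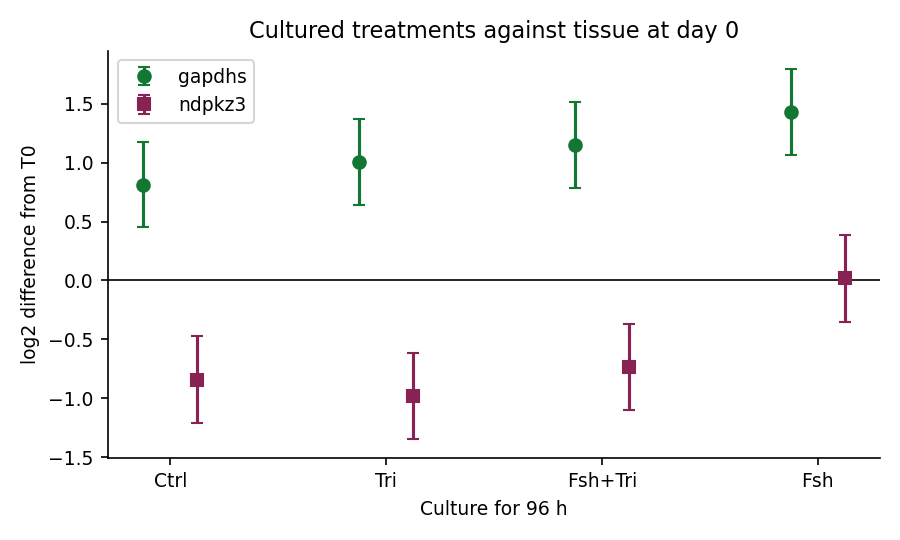
Log2 difference of each cultured treatment (n = 6) from T0 (n = 3) for *gapdhs* (circles) and *ndpkz3* (squares), with 95% confidence intervals from limma. All 4 values of *gapdhs* are above 0, and those of *ndpkz3* are below 0 except in Fsh, at 0.02.

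Some of the markers listed for cell types in the explants also differed between culture and T0. Among the 102 named clones 51 were higher and 17 lower in culture, beside 29.3% called of all clones. Such calls are thus not particular to markers. All the markers came from the study's list of clones responsive to Fsh. Their differences between treatments are thus a description and no measure of cell numbers. Of 4 Sertoli cell markers, *amh*, *dmrt1*, *cldn11* and *inha*, 1 was higher and 3 were lower in culture at an adjusted p under 0.05 (limma). Their summed linear value was 6435 to 7153 at T0, 835 to 2696 in Ctrl, 1484 to 2344 in Tri, 2388 to 3189 in Fsh+Tri and 3532 to 4616 in Fsh. The 1 marker of Leydig cells was *hsd3b1*, a 3 beta-hydroxysteroid dehydrogenase, the enzyme that trilostane blocks. The study reports it as raised by Fsh and lowered by androgens. It fell by 1.65 on the log2 scale in the mean of the cultured treatments. Its linear value was 378 to 608 at T0, 90.1 to 145 in Ctrl and 140 to 227 in Fsh. Of 3 genes listed for dividing or meiotic cells, *cenpa* of the centromere and *mcm7* and *ccne1* of DNA replication, none is restricted to germ cells by its role in division. None of them passed the threshold in either direction, and their log2 differences lay between -0.21 and -0.00044. The sum of these 3 was 1581 to 1689 at T0, 1239 to 2718 in Ctrl, 1568 to 2148 in Tri, 1142 to 1392 in Fsh+Tri and 1027 to 1919 in Fsh. Of the 2 markers of smooth muscle, *des* was higher and *smtn* lower after culture. The 4 genes listed for antigen presenting cells were *onmy-uba*, a MHC class I heavy chain, *mhc2dab*, MHC class II alpha and *ctss*. Of these *ctss* was higher and *mhc2dab* lower. Linear values taken from log2 signals are above 0 by construction, so they do not show that a cell type was present. The part of the mix of cells in the shifts of *gapdhs* and *ndpkz3* was not tested.

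The contrasts with Fsh chose both clones and are described here without a test. Without trilostane, *gapdhs* was higher in Fsh than in Ctrl by 0.61 on the log2 scale (standard error 0.15), a ratio of 1.53, just inside the 1.5-fold filter of the study. *ndpkz3* was higher by 0.86 (standard error 0.14), a ratio of 1.81. Of all 4565 clones tested in this contrast 2.17% passed an adjusted p of 0.05, and the median difference of all clones was -0.04. The 6 values of Fsh lay above those of Ctrl in 36 of 36 pairs of arrays for *ndpkz3* and in 34 of 36 for *gapdhs*. Fsh replicates 1 and 2 of *gapdhs*, at 11.64 and 11.72, lay below Ctrl replicate 2 at 11.73. Such pairs were not counted over all clones.

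In the presence of trilostane the differences made by Fsh were smaller. *gapdhs* was 0.14 higher in Fsh+Tri than in Tri (standard error 0.15) and *ndpkz3* 0.25 higher (standard error 0.14), both ranges overlapping. The response with trilostane minus that without was -0.47 for *gapdhs* (standard error 0.21) and -0.61 for *ndpkz3* (standard error 0.19). These contrasts share arrays with each other. They also depended on how the spots were scaled. On raw intensities that were quantile normalized without the division by the vector signal, *gapdhs* differed by 0.39 between Fsh and Ctrl. The differences between Fsh+Tri and Tri were then 0.02 for both transcripts.

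The pairs of treatments that differ in trilostane alone share arrays with the contrasts that chose the clones and are described only. In explants with Fsh, *ndpkz3* was lower with trilostane than without by 0.75 (log2 difference -0.75, standard error 0.14). All 6 arrays of Fsh+Tri lay below all 6 of Fsh. In this contrast 1.45% of all clones passed limma's threshold, while clones without overlap were not counted. *gapdhs* had a difference of -0.28 (standard error 0.15) with overlapping ranges. In explants without Fsh, the difference between Tri and Ctrl was -0.14 for *ndpkz3* and 0.19 for *gapdhs*, with ranges that overlapped.

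The mean effect of trilostane, taken over explants with and without Fsh, was -0.45 for *ndpkz3* (log2 difference, standard error 0.10, 95% confidence interval -0.64 to -0.25), the 47th lowest of 4565 clones, of which 1.77% passed the threshold, 65 higher and 16 lower. For *gapdhs* it was -0.04 (standard error 0.10, 95% confidence interval -0.26 to 0.17). The mean covers unequal differences for *ndpkz3*, -0.14 without and -0.75 with Fsh. As the study named both clones for their sensitivity to trilostane in pairwise comparisons, without saying which pair, these values are a description too.

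The cell type markers had their own differences with trilostane. Of the Sertoli cell markers 1 of 4, *cldn11*, was lower at an adjusted p under 0.05 (-0.61, limma). Of the 4 genes listed for antigen presenting cells 1, MHC class II alpha, was higher (0.76). The median over the 4, which include the class I chain *onmy-uba*, was 0.43. None of the 3 genes of dividing cells, of the 2 smooth muscle markers and of the 1 Leydig cell marker passed the threshold in limma's fit. Among the 102 named clones 6 were higher and 12 lower in the mean effect of trilostane, beside 1.77% called of all clones. All these markers come from the list of clones responsive to Fsh, so the differences are a description. Their part in the values of *ndpkz3* was not tested.

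The stage label of the arrays, I-II for immature testis with mostly type A spermatogonia and III for testis with further developed germ cells, was compared within treatments. By the methods each well held explants of both kinds, so that the meaning of the label of an array is uncertain. *ndpkz3* differed by 0.07 between stage III and stage I-II (standard error 0.12, 95% confidence interval -0.16 to 0.31, adjusted p = 0.855, limma), and *gapdhs* by -9.8e-05 (standard error 0.13, 95% confidence interval -0.26 to 0.26, adjusted p = 1). The share of clones called was 0%, since limma called 0 of 4565, against 418 at an unadjusted p under 0.05 and 16 with array weights. All 6 Ctrl arrays carry the label I-II, so they do not enter this difference.

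The wells of a treatment varied around their mean. On the deposited values, within Fsh, both transcripts were lowest on replicates 1 and 2 and highest on replicate 5. Over these 6 arrays Pearson's r between *gapdhs* and *ndpkz3* was 0.98 (exact permutation p = 0.00278, adjusted p = 0.0111 over the 4 treatments) and Spearman's rho was 0.94 (exact permutation p = 0.0167, adjusted p = 0.0667, which misses the threshold). The relation was noticed on these same arrays before it was tested, so the p-values are no independent evidence for it. Of the 4507 clones compared with *ndpkz3*, *gapdhs* among them, 5 were at least as close to it over the same arrays. For *gapdhs*, compared with 4507 clones that include *ndpkz3*, the count was 6.

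Pearson's r was -0.24 in Ctrl (exact permutation p = 0.608, adjusted p = 0.811), 0.04 in Tri (exact p = 0.943, adjusted p = 0.943) and 0.25 in Fsh+Tri (exact p = 0.551, adjusted p = 0.811), and rho was 0.03, 0.26 and 0.60 with adjusted p of 1, 0.878 and 0.483. Without the 2 arrays farthest from the median of *gapdhs*, over 4 arrays each, r was 0.89 in Fsh, -0.66 in Ctrl, 0.93 in Tri and 0.29 in Fsh+Tri, so that the order of Fsh and Tri turned. On raw intensities relative to the median of the array r was 0.83 in Fsh, -0.58 in Ctrl, 0.63 in Tri and 0.12 in Fsh+Tri. There the lowest Fsh array was replicate 4 for both transcripts (31.2 times the median for *gapdhs* and 3.58 for *ndpkz3*), so other arrays carry the relation than on the deposited values. Over all 24 cultured arrays, as deviations from the treatment means, r was 0.23 (permutation p = 0.363) and rho 0.35 (permutation p = 0.132), and r was 0.34 without the 2 arrays farthest from the median of *gapdhs*, Ctrl replicates 2 and 4. Whether the treatments differ in this relation was not tested.

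**Figure D3:**
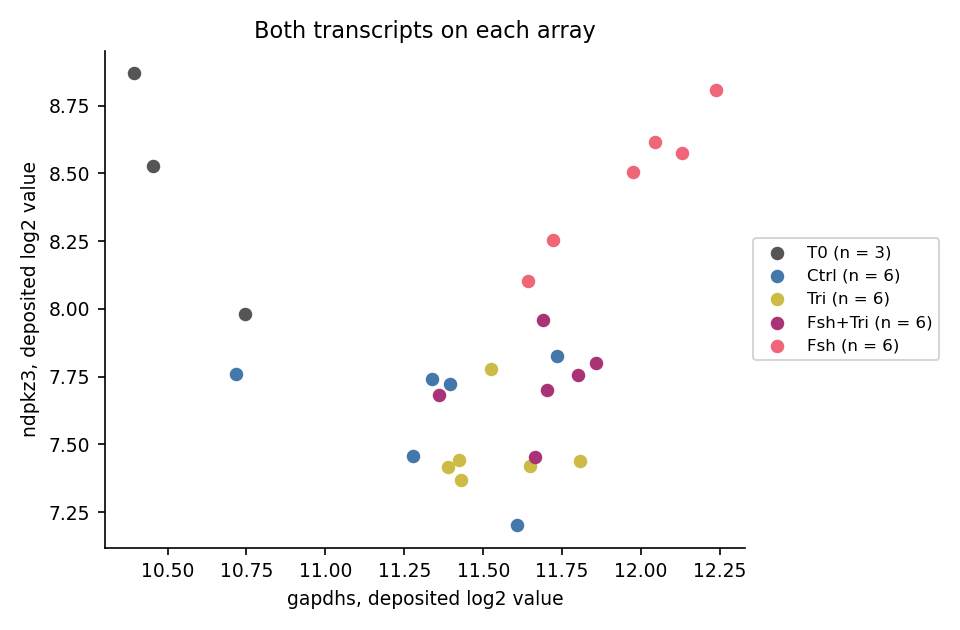
Deposited log2 value of *ndpkz3* against that of *gapdhs* on each of the 27 arrays, coloured by group. The 6 Fsh arrays rise along a line at the upper right (r = 0.98), the 3 T0 arrays lie at the left, and the other treatments overlap at *ndpkz3* values of 7.20 to 7.96.

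Among the clones with a gene name are a few other enzymes of sugar metabolism. They are in the clone list for their response to Fsh, so here too the contrasts with Fsh are a description. *hk1*, hexokinase 1, which starts glycolysis, had log2 differences of 0.63 between Fsh and Ctrl and 0.48 between Fsh+Tri and Tri (standard error 0.14 each). *pgd*, the 6-phosphogluconate dehydrogenase of the pentose phosphate path, had 0.52 and 0.65 (standard error 0.18 each). *gpd1*, the glycerol-3-phosphate dehydrogenase of the cytoplasm, had 0.33 and 0.45 (standard error 0.14 each), and *slc25a43*, a carrier of the mitochondrial family, had 0.60 and 0.47 (standard error 0.12 each). In these 4 the second value was between 0.13 above and 0.16 below the first, while in *gapdhs* and *ndpkz3* it was 0.47 and 0.61 below it. This contrast was set by the choice of clones and is no finding about the enzymes. The study lists *gapdhs* and *ndpkz3* under a response lost with trilostane, and *hk1* and *slc25a43* under a response insensitive to it.

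In the comparison of culture with T0, 3 of these 4 were higher and 1 lower. *hk1* rose by 1.10 (standard error 0.17, adjusted p = 6.86e-06, limma), the same as *gapdhs* to this precision. Its signal at T0 was much lower than that of *gapdhs*. On T0 replicate 1 *hk1* exceeded 19.7% of the clones, on replicate 2 62.1% and on replicate 3 52.5%. *pgd* rose by 2.90 (standard error 0.21, adjusted p = 2.31e-12) and *slc25a43* by 0.88 (standard error 0.13, adjusted p = 2.79e-06), whereas *gpd1* fell by 0.75 (standard error 0.14, adjusted p = 0.000125), as *ndpkz3* did. Of the 102 named clones 51 were higher and 17 lower after culture, beside the 29.3% called among all clones. In the mean effect of trilostane, 1 of the 4 was called, beside 1.77% of all clones, of which 65 were higher and 16 lower. *pgd* was 0.96 higher in this contrast (standard error 0.13, adjusted p = 8.01e-06, limma), the more common direction and opposite to *ndpkz3*. As for *ndpkz3*, this value is a description.

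**Figure D4:**
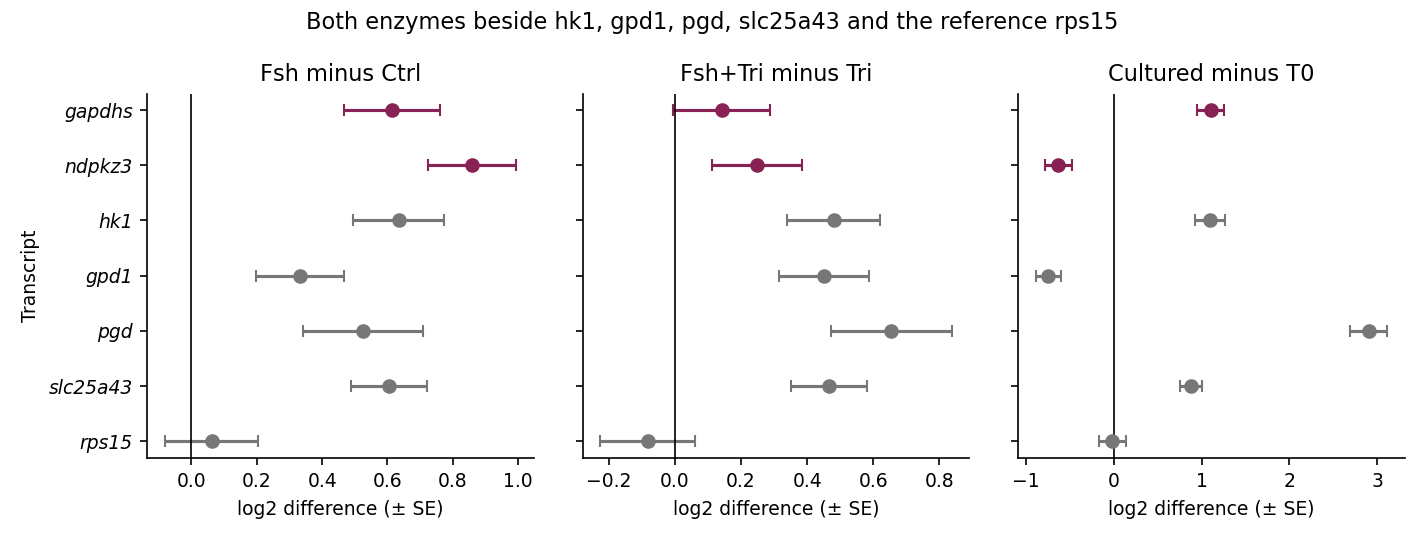
Log2 differences (± standard error) of *gapdhs*, *ndpkz3*, 4 other named metabolic clones and the reference *rps15* for Fsh against Ctrl, Fsh+Tri against Tri, and the mean of the cultured treatments against T0. *ndpkz3* and *gpd1* are below 0 in the last panel, and *pgd* has the highest value there at 2.90.

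Over the 24 cultured arrays, which share the treatments, the named clones with log2 values most like those of *ndpkz3* were *vt1*, the vasotocin precursor (Pearson's r = 0.91), a 14 kDa apolipoprotein (0.88), the matrix metalloproteinase *mmp19* (0.83), the filamin-binding protein *fblim1* (0.83) and *cth*, cystathionine gamma-lyase (0.82). The first of them was also first among all 4507 clones compared. Those most like *gapdhs* were *tpd52l1* (0.81), 1 of the clones of *lrrc8* (0.78), the inhibin subunit *inha* (0.77), *cth* (0.77) and the spectrin *sptbn1* (0.75). The transcripts themselves had r = 0.63 with each other, the 86th highest for *gapdhs* and the 77th for *ndpkz3*. As deviations from the treatment means their r was 0.23. Both transcripts and the named clones were chosen for differences between these treatments, so a high r among them is largely set by that choice. Of the 36 clones with r over 0.7 to *ndpkz3*, 23 were named, although only 101 of the 4507 clones compared had a name.

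In the comparison of culture with T0, 4 of the 5 clones closest to *ndpkz3* were higher and 0 were lower at an adjusted p under 0.05 or at an unadjusted p under 0.05 (limma), with a range of -0.09 for the apolipoprotein to 1.34 for *cth*. Beside them, 751 of all 4883 clones and 51 of the 102 named clones were higher, so that a rise was common among named clones, and *ndpkz3* fell by 0.64. Of the 5 clones closest to *gapdhs*, 3 were higher (*tpd52l1*, *cth*, *lrrc8*) and *inha* was lower.

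The raw intensities put both spots above most of the membrane. *gapdhs* was 17.7 to 57.7 times the median of all spots of its array and brighter than 98.2% to 99.5% of them, and *ndpkz3* was 2.23 to 7.06 times the median and brighter than 80.4% to 95.5%. In these units the 6 Fsh arrays of *ndpkz3*, from 3.58 to 4.90, again lay above the 18 arrays of Ctrl, Tri and Fsh+Tri, from 2.23 to 3.28. How many of all clones share this separation was not counted here either. For *gapdhs* the Fsh arrays, from 31.2 to 55.5, overlapped all other cultured treatments. They lay above the T0 arrays, from 22.8 to 29.1, a separation likewise not counted over all clones. It was not particular to Fsh, since the lowest arrays of Tri (32.65) and Fsh+Tri (32.9) lay above T0 too. Fsh was not the highest group of *gapdhs* in these units, with a median of 42.4 beside 45.0 in Fsh+Tri, 41.5 in Tri and 37.3 in Ctrl. The spot of *ndpkz3* carried a quality flag of 0 on Ctrl replicates 1 and 3, Tri replicates 3, 5 and 6, and Fsh+Tri replicates 3, 5 and 6. It was flagged 1 on every Fsh array. On T0 replicate 1 both spots were flagged -1. The part of the flagged spots in the differences was not tested.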

How the data were processed

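Levels were measured on 27 cDNA arrays, with groups taken from the sample labels. A single deposited table gives log2 values, for which the authors scaled each spot intensity by a vector oligonucleotide probe that tracks the spotted cDNA and then quantile normalized the arrays. The authors also deposited the raw spot intensity, a quality score and a quality flag of each spot, from image software of an older layout on 22 arrays and a newer one on 5. The methods name BZscan, and the file headers AGScan. Spots were matched to clones through the spot numbers of the study's clone list. No column was left unmapped.

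Control rows (192) were left out, and clones measured on 80% of the arrays or more with a group mean at or above the median were tested. The package limma 3.58.1 (lmFit and eBayes, under R 4.3.3) fitted the group means, with p-values adjusted by Benjamini-Hochberg over all clones tested at a threshold of 0.05. Single values were also tested by exact permutation in Python 3.11.15 with scipy 1.17.1. The fit was tested on simulated data. The number of arrays limits the precision. Alternatives concerned filters, normalization, raw intensities, array weights, stage, software layout, replicate number and each array left out.

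The members, the marker lists and the rule for named genes (both transcripts, *hk1*, *gpd1*, *pgd*, *slc25a43*, *rps15* and the 5 named clones most like each transcript) were chosen with earlier results of these data known, and the correlations between the transcripts within treatments were chosen after their values were seen. The mean effect of trilostane had been planned as a test and is given for both transcripts as a description. Clones without a name in the clone list were not named. No sequence of either clone was used here.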

Additional observations from a re-analysis of the deposited data

Results flagged for a closer look

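One of the 8 sets of 6 arrays (both transcripts in the 4 cultured treatments) held a value far from the others. *ndpkz3* in Tri replicate 1 was 7.78 on the log2 scale, while the other 5 Tri arrays lay between 7.37 and 7.44. Its gap to the nearest of them was 0.81 of the whole range, above Dixon's 95% critical value of 0.625 for 6 samples, which chance exceeds in about 1 of 20 sets. The array carries the stage III label and was read with the newer layout of the image software. Tri replicate 3, of the newer layout too, had 7.42.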

How the results depend on the processing

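The call for the rise of *gapdhs* in culture kept its direction and side of the threshold under all alternatives run. That for the fall of *ndpkz3* in culture ended on stage I-II arrays alone (-0.74, adjusted p = 0.103, 1 T0 array) and without T0 replicate 2, with -0.87 to -0.43 over single arrays left out. Its mean effect of trilostane was -0.58 on stage I-II arrays alone and -0.49 to -0.41 with any array left out. The stage difference of *gapdhs*, near 0, turned to 0.019 with array weights, 0.042 on the older layout and 0.0035 with layout as a covariate, and lay between -0.070 and 0.049 with 1 array left out. On quantile normalized raw intensities, the response to Fsh with trilostane of *ndpkz3* was 0.023. The differences from T0 were then 1.02 (Fsh) and 0.81 (Fsh+Tri) for *gapdhs* and -0.33 (Fsh) and -1.08 (Fsh+Tri) for *ndpkz3*. On the older layout, *ndpkz3* differed from T0 by -1.11 in Ctrl, -0.24 in Fsh, -1.28 in Tri and -0.97 in Fsh+Tri. With 1 array left out these were -1.08 to -0.64, -0.22 to 0.22, -1.22 to -0.78 and -0.97 to -0.53. On stage I-II arrays, the difference of the responses of *gapdhs* was -0.74, and *ndpkz3* differed by -0.98 between Fsh+Tri and Fsh and by -0.96 between Fsh+Tri and T0. The clones called there numbered 28 for trilostane and 295 for culture, with fewer arrays fitted, and with array weights 16 for stage. The cause of the other shifts was not tested.

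Arrays with the same replicate number in different treatments did not deviate together on average (mean correlation of -0.05 over 36 pairs, against 0.01 over 180 pairs of different number). Single pairs of the same number ranged from -0.348 to 0.214. The labels do not state a meaning for the number. With it as a replicate block the mean effect of trilostane was -0.45 on *ndpkz3* and -0.04 on *gapdhs*, the culture difference was -0.66 on *ndpkz3* (adjusted p = 0.00457, limma) and 1.18 on *gapdhs* (adjusted p = 6.15e-06), and no call for either transcript changed. The comparison with culture rests on 3 T0 arrays.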
